A study of Homo sapiens with 36 samples.

Results

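H3K27ac regions specific to POS cells are stretches of chromatin that carried the mark strongly in one sorted subpopulation of a breast cancer cell line and hardly at all in the other. They were chosen by their H3K27ac levels in the DMSO-treated POS and NEG libraries. Each of the 57075 regions of that comparison was scored in CPM, its count scaled to a library total of 1e+06, and a region was a member if mean POS was at least 20 CPM and at least 8 times mean NEG plus 0.5. The rule took 2115 regions, and 12681 further regions reached the same POS level without the ratio. Those 12681 served as the comparison set and are called the other strong regions.

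SUM-229PE is an established triple-negative breast cancer line grown from a pleural effusion, and all groups come from it. POS cells were sorted as EpCAM+ CD49f+ and NEG cells as EpCAM- CD49f-, each of the sorts being a subpopulation of the 1 line. The DMSO controls comprised 3 POS and 2 NEG H3K27ac libraries, and JUNB was profiled in 2 POS and 2 NEG libraries of DMSO-treated cells. The acute and the chronic experiment were separate arms with their own controls and doses, so values at 24 h and at day 14 are set side by side and are not successive times of 1 course. Acute treatment was 30 nM trametinib for 24 h, with 3 POS and 2 NEG libraries. Chronic treatment was 10 nM trametinib, with 2 libraries each at day 0 and day 14 in POS and in NEG. There was no day 14 group without drug among the samples used here, so drug and time in culture cannot be told apart. POSR1 and POSR2 had 2 libraries each. The labels say neither what these populations are nor whether they were under drug when collected. The labels do not state whether replicates were grown as separate cultures, and p-values here therefore reflect only the spread among these libraries, which may be technical.

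Acetylation of lysine 27 of histone H3 (H3K27ac) marks active promoters and enhancers, and enhancers carrying it differ between cell types more than promoters do. EpCAM is an epithelial adhesion molecule, and CD49f is integrin alpha 6, a laminin receptor of basal epithelial cells. JUNB is a subunit of the transcription factor AP-1, which binds many enhancers. Trametinib inhibits the kinases MEK1 and MEK2, upstream of ERK, and ERK signalling acts on AP-1 among other factors. Positions below are in hg19 as the files give them. No annotation of that build was used, so regions are named by position and not by gene, and no sequence is shown.

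The values that chose the members are given as a description, with no test. Member levels had a median of 42.7 CPM in POS, from 20.02 to 277, and of 2.56 CPM in NEG, from 0.19 to 26.6. By library, the median member had 44.5, 39.8 and 43.0 CPM in the 3 POS libraries and 2.49 and 2.44 CPM in the 2 NEG libraries. In all 2115 members the lowest POS library was above the highest NEG library, against 39.5% of all regions, a count that the ratio in the rule all but fixes. The ratio of the rule had a median of 12.8 and reached 103. It was at least 16 in 717 members, at least 32 in 124 and at least 64 in 5. Regions close to the threshold hardly differed across it: chr8:134353203-134354204 entered with a ratio of 8.005, and chr3:189579946-189580947 stayed out with 7.999 at a POS level of 131 CPM. For the level, chr22:21379507-21380508 entered with 20.02 CPM and chr20:23520660-23521661 stayed out with 19.96 CPM.

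**Figure D1:**
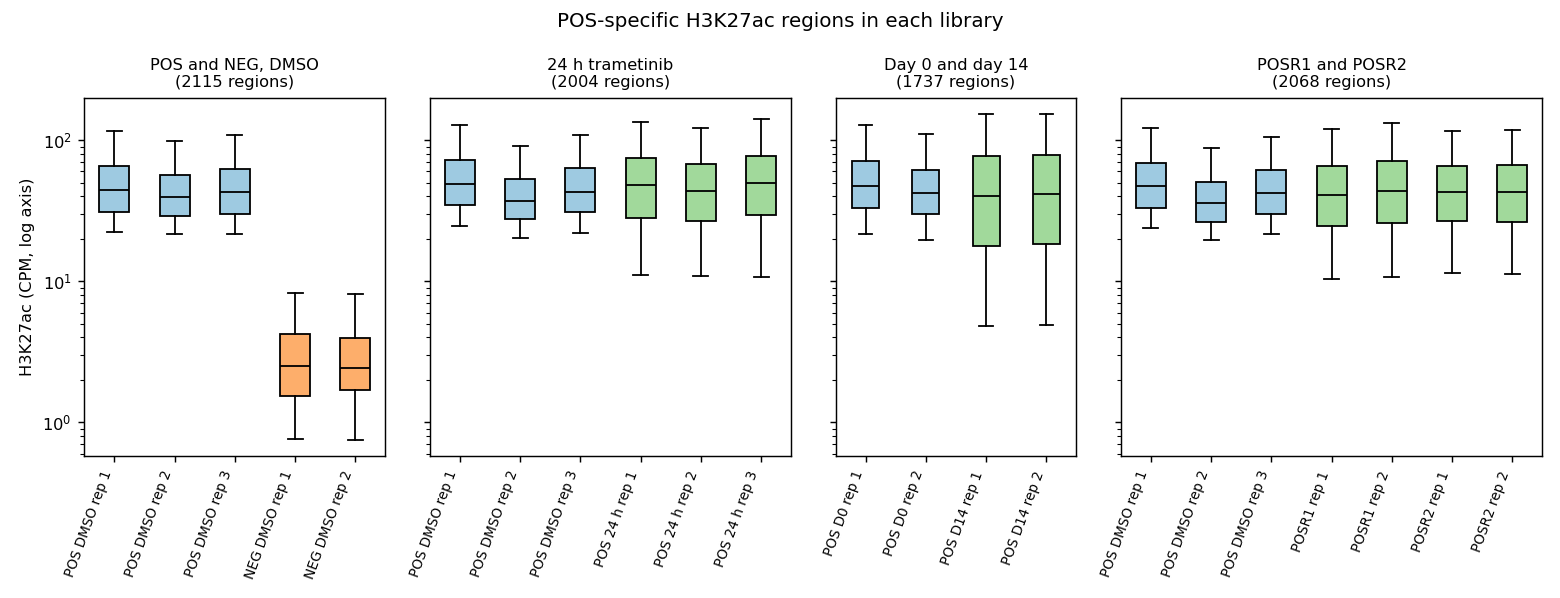
H3K27ac of the POS-specific regions in each library, in CPM on a log axis. Boxes span the quartiles with the median as a line and whiskers from the 5th to the 95th percentile of regions, the first panel is scaled to library totals and the others by TMM within each table, and blue marks untreated POS, orange NEG and green treated POS, POSR1 and POSR2. Medians of all POS, POSR1 and POSR2 libraries lie between 36.1 and 49.8 CPM, and the lower quartile reaches furthest down at day 14, to 17.9 and 18.2 CPM.

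The members were spread over the genome, mostly one at a time. With members up to 50 kb apart joined, they formed 1680 blocks, of which 1351 held a single member and 329 held several. The blocks with several held 764 members, or 36.1% of all, and no block had more than 5. Members made up 3.71% of all regions in the table. By chromosome, this share was highest on chromosome 9, at 6.52% (136 of 2085 regions), and lowest on chromosome 19 among chromosomes with members, at 1.45% (14 of 966).

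JUNB binding was measured in libraries that had no part in the rule. A JUNB site lay with at least 50% of its length inside 2003 members (94.7%), and inside 11923 of the other strong regions (94.0%). The leading site of each member, meaning the one with the highest mean level, was tested in 1999 members. It was higher in POS than in NEG in 1962 of them by the quasi-likelihood test of edgeR (p adjusted by Benjamini and Hochberg's method, threshold 0.05), against 28.5% of all 141580 JUNB sites tested. In no member was it lower by that test, against 29.4% of all sites, and the count was also 0 at an unadjusted p under 0.05 and by DESeq2. When the second NEG JUNB library was left out, 1 member was lower. Of all 12681 other strong regions, with or without a tested site, 33.0% had a leading site higher in POS and 17.2% one lower in POS. On the same base of all 2115 members, 92.8% had one higher in POS. The median log2 fold change of JUNB was 2.94 over the members and 0.22 over the other strong regions. The difference was plain in each library: the median member site had 13.6 and 12.2 CPM in POS and 1.30 and 1.04 CPM in NEG.

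**Figure D2:**
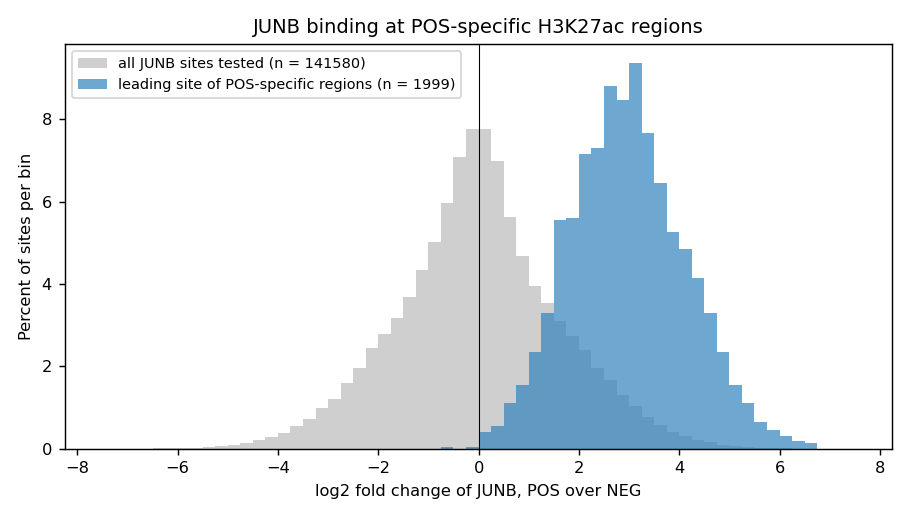
JUNB log2 fold change of POS over NEG, in bins of the share of sites. Blue is the leading site of each POS-specific H3K27ac region (n = 1999, median 2.94) and grey is all JUNB sites tested (n = 141580, median -0.02), and the blue distribution lies almost wholly to the right of 0.

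The 4 members with the largest JUNB difference had almost no JUNB reads in NEG. At chr3:181691920-181692921 the JUNB site had 138 and 122 CPM in the POS libraries and 1.30 and 0.522 CPM in NEG. Its log2 fold change was 6.69 ± 0.34 (SE), with an adjusted p of 8.7e-82 by edgeR. At chr10:123084320-123085321 the site had 42.5 and 33.6 CPM in POS and 0.118 and 0.174 CPM in NEG, which was 1 read in each NEG library. The first of these members kept its H3K27ac in all POS samples, with 80.6, 61.8 and 71.5 CPM under DMSO, 103 and 104 CPM at day 14, and 72.9 to 80.9 CPM across the 4 POSR1 and POSR2 libraries.

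A further check of the members came from the day 0 POS libraries, which were also outside the rule. Of the 1737 members matched to a region of the chronic POS table (an overlap of at least 50% of both regions, 1 to 1), 96.4% and 94.7% were at or above 20 CPM in the 2 day 0 libraries. Their medians were 47.3 and 42.5 CPM, beside 12.1 and 12.9 CPM over all regions of that table. The remaining members were 263 that overlapped a region by less or shared it with another member, and 115 with no overlapping region. Those 115 had a median of 49.4 CPM in the POS DMSO libraries, so they were not the weakest members.

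Among the POS and POSR comparisons with a control, day 14 of trametinib had the smallest share of members within 2-fold of the control. Of the 1737 members tested, 818 (47.1%) were lower than at day 0 and 578 (33.3%) were higher by edgeR's test, against 38.2% lower and 39.5% higher of all 44304 regions. A fall of at least 2-fold was called in 488 members (28.1%, against 25.6% of all regions) and a rise of at least 2-fold in 198 (11.4%, against 25.7%). A fall of at least 8-fold, the size of the ratio in the rule, was called in 69 members (3.97%, against 1.81% of all regions and 4.58% of the other strong regions). The median log2 fold change was -0.21 over the members, -0.60 over the other strong regions and 0.02 over all regions. Among the other strong regions 58.8% were lower and 22.7% higher. By at least 2-fold, 38.5% of them were lower and 5.36% higher, a smaller share of rises than among the members. The difference between the sets was not tested. Within 2-fold of day 0 were 1051 members (60.5%), beside 48.7% of all regions and 56.1% of the other strong regions. By level, 72.4% and 72.5% of members were at or above 20 CPM in the 2 day 14 libraries. The POS and NEG DMSO levels of each member give a distance between POS and NEG on the log2 scale, with a median of 3.70. The rule itself set this distance at 8-fold or more, so the next values are a description. The fall by day 14 covered at least 50% of that distance in 231 members (13.3%) and all of it in 23 (1.32%).

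Direction at day 14 went with the library group in which the region had been listed as a peak. A region enters the table through a peak in the group it is listed from. The split can therefore follow from the listing itself and is given as a description. Of the 1295 members whose region was listed from day 0, 783 were lower and 225 higher. Of the 442 listed from day 14, 35 were lower and 353 higher. Shares called by listing are not given for all regions, so the split is not read as particular to the members. Members were listed from day 0 more often than all regions of the table (74.6% against 56.2%). The part of this listing in the counts was not tested. The shares by JUNB class and by POS level were close to each other. Members with a POS-higher JUNB site were lower in 47.1% of 1612 tested, and members with no site in 45.2% of 93. With members in 3 groups of 705 by POS level, 47.2% were lower in the weakest, 45.3% in the middle and 48.8% in the strongest.

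The deepest falls at day 14 ended at a few CPM. Levels are set side by side across tables that were normalized separately and whose matched windows can be shifted. At chr14:71252216-71253217 the day 0 libraries had 62.5 and 52.4 CPM and the day 14 libraries 2.21 and 1.96 CPM, a log2 fold change of -4.55 ± 0.21 (SE, adjusted p = 3e-47 by edgeR). NEG had 0.766 and 0.751 CPM there. In the acute arm this member had 64.6, 47.1 and 55.3 CPM under DMSO and 6.71, 6.15 and 5.35 CPM at 24 h. In the POSR populations it was split: POSR1 had 52.2 and 52.3 CPM, within the range of POS, and POSR2 had 15.9 and 19.4 CPM.

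A second member, chr2:106351024-106352025, went from 37.1 and 31.1 CPM at day 0 to 1.29 and 0.98 CPM at day 14 (log2 fold change -4.50 ± 0.25, adjusted p = 2.9e-38 by edgeR). The NEG libraries had 4.21 and 2.82 CPM, in a window that only overlaps the one used at day 14. Its JUNB site was one of the 37 not called, with 10.2 and 8.01 CPM in POS and 6.84 and 5.57 CPM in NEG. Both POSR1, at 7.30 and 8.60 CPM, and POSR2, at 15.4 and 16.2 CPM, were below every POS DMSO library there.

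At chr9:111599765-111600766 the arms differed in size. In the acute arm the level was 104, 81.3 and 93.2 CPM under DMSO and 54.9, 45.8 and 55.8 CPM at 24 h. In the chronic arm it was 102 and 84.1 CPM at day 0 and 4.80 and 4.70 CPM at day 14 (log2 fold change -4.19 ± 0.18). POSR1 and POSR2 had 52.4 to 65.1 CPM, well above both day 14 libraries, though on the scale of a separately normalized table. The other 3 members of the 6 lowest, chr1:216499367-216500368, chr5:178116767-178117768 and chr15:89336088-89337089, all fell from 42.2 CPM or more to 2.55 CPM or less, and in POSR1 and POSR2 they had 9.59 to 16.2 CPM.

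Some members rose by day 14 well above their starting level. The largest rise was at chr17:65634145-65635146, from 31.9 and 26.6 CPM at day 0 to 181 and 172 CPM at day 14 (log2 fold change 2.55 ± 0.15, adjusted p = 7.3e-37 by edgeR). It had 20.2 CPM in POS under DMSO, close to the threshold of the rule. At chr1:55388750-55389751 the level went from 24.4 and 21.5 CPM to 110 and 122 CPM, and in the acute arm it was 81.7, 69.9 and 83.1 CPM at 24 h. At chr1:223602694-223603695 the level was 20.7, 21.3 and 20.1 CPM under DMSO and 30.3, 28.4 and 32.0 CPM at 24 h, and in the chronic arm it rose from 17.7 and 15.3 CPM at day 0 to 93.4 and 87.8 CPM at day 14. In POSR2 the same member had 8.02 and 5.78 CPM, below all POS libraries.

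Of the 6 members chosen for the smallest change at day 14, 4 were called in the acute arm by edgeR, 3 of them higher with log2 fold changes of 0.61 to 0.67 and 1 lower. The lower one was chr2:101944240-101945241, with 43.3, 37.6 and 44.4 CPM under DMSO and 16.4, 15.4 and 14.3 CPM at 24 h (log2 fold change -1.44 ± 0.14). In the chronic arm its day 14 level, at 46.9 and 49.6 CPM, overlapped day 0, at 49.6 and 46.1 CPM. By contrast chr4:103586114-103587115 was not called in either arm, with 88.4, 64.0 and 77.4 CPM under DMSO, 75.9, 70.9 and 84.8 CPM at 24 h, 84.4 and 79.9 CPM at day 0 and 81.2 and 83.7 CPM at day 14.

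**Figure D3:**
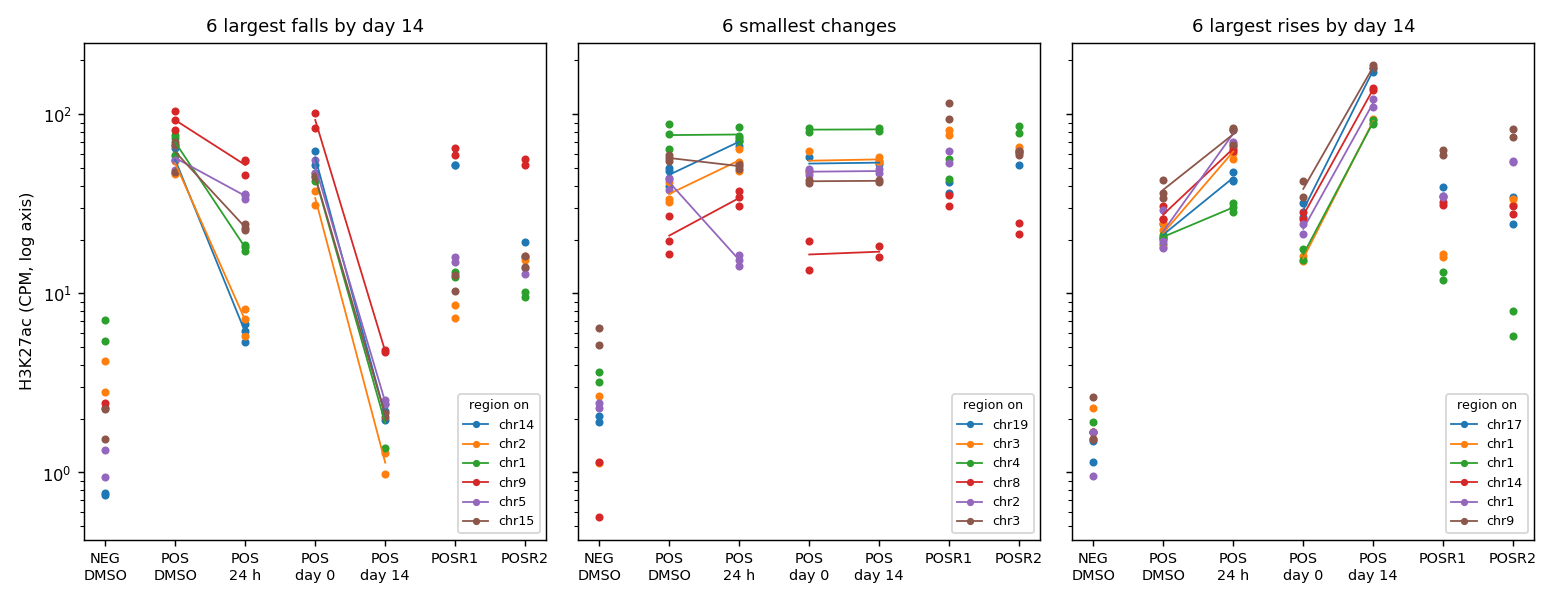
H3K27ac of 18 POS-specific regions in each library, in CPM on a log axis, with a point per library and lines joining group means within a table (POS DMSO to 24 h, day 0 to day 14). In the left panel the 6 largest falls end at 4.80 CPM or less at day 14, in the middle panel 5 of 6 regions stay within 2-fold in the acute arm while the one on chromosome 2 is lower there and level in the chronic arm, and in the right panel the 6 largest rises end at 87.8 CPM or more.

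Neighbouring members did not always move together. Of 221 blocks with at least 2 members tested at day 14, all tested members were lower in 74 and all were higher in 30, while 47 had members called in both directions. Such counts are not given for other neighbouring regions, so these are not read as particular to the members. The block of 5 members at chr5:178062245-178117768 was lower throughout, with log2 fold changes of -4.18 to -1.42 at day 14, and all 5 were also lower in POSR2 (-2.03 to -0.67). The block of 5 at chr5:134986255-135041246 did not follow this: of its 4 members tested at day 14, 3 were higher and none lower, with log2 fold changes of -0.22 to 0.79. In POSR2 all 5 of its members were lower (-1.65 to -0.56), and in POSR1 4 of 5.

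The 24 h comparison used the POS DMSO libraries that had also chosen the members, so its counts and values are a description, given with no p for single members. Of 2004 members matched and tested, 689 (34.4%) were higher and 548 (27.3%) lower by edgeR's test, against 26.7% and 26.0% of all 50345 regions. At least 2-fold changes were fewer: 103 were higher (5.14%, against 8.04% of all regions and 2.5% of the other strong regions). Lower by at least 2-fold were 253 (12.6%, against 10.2% of all regions and 16.5% of the other strong regions). Lower by at least 8-fold were 17 (0.848%, against 0.248% and 0.776%). Within 2-fold of DMSO were 1648 members (82.2%), beside 81.7% of all regions. The median log2 fold change was 0.13 over the members and -0.17 over the other strong regions, of which 18.6% were higher and 40.0% lower. By library, member medians were 49.2, 37.2 and 43.2 CPM under DMSO and 47.9, 43.7 and 49.8 CPM at 24 h, so the groups overlapped. Members at or above 20 CPM were 86.0%, 84.6% and 86.5% in the 3 treated libraries. Direction went with the peak listing here too, which is a description for the same reason as at day 14. Of 1130 members listed from DMSO libraries (56.4%, against 48% of all regions), 532 were lower and 118 higher. Of 874 listed from treated libraries, 16 were lower and 571 higher. Shares called by listing are not given for all regions. The unmatched members were 88 with a lesser or shared overlap and 23 with no overlapping region, and these 23 had a median POS level of 105 CPM.

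Some of the stronger members were among the 4 lowest named at 24 h. Over all members tested the lowest log2 fold change was -4.24, at a member not among those 4. At chr7:16123474-16124475 the level was 169, 121 and 139 CPM under DMSO and 8.32, 10.6 and 6.91 CPM at 24 h (log2 fold change -4.04 ± 0.20). In the chronic arm day 14 had 12.9 and 13.5 CPM against 130 and 127 CPM at day 0, but POSR1 had 218 and 236 CPM, above all POS libraries, and POSR2 77.9 and 82.9 CPM. At chr8:101500093-101501094 the 24 h libraries had 11.9, 14.7 and 10.6 CPM against 173, 126 and 151 CPM under DMSO, while day 14 had 38.8 and 41.6 CPM against 155 and 140 CPM at day 0. In POSR1 and POSR2 this member had 130 to 153 CPM, overlapping POS. The highest acute change was at chr6:53635436-53636437, with 24.2, 21.9 and 23.7 CPM under DMSO and 99.4, 97.1 and 107 CPM at 24 h (log2 fold change 2.10 ± 0.17). Its chronic arm had 31.2 and 30.5 CPM at day 0 and 96.0 and 93.1 CPM at day 14.

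The acute and the day 14 comparison share no library, and 1693 members were tested in both. As the acute controls also chose the members, these counts are a description, beside the same shares over all 30736 matched regions. Of the 456 members lower at 24 h, 396 (86.8%) were lower at day 14, and these were 49.1% of the 807 lower at day 14. Over all matched regions the shares were 81.3% and 54.0%. Of the 583 higher at 24 h, 373 (64.0%) were higher at day 14, which was 66.8% of the 558 higher then, beside 65.5% and 59.6% over all matched regions. Falls at day 14 without an acute fall were also found. Of the 654 members not called at 24 h, 305 (46.6%) were lower at day 14, a share not given here for all matched regions. Another 106 (18.2% of those higher at 24 h, beside 12.8% over all matched regions) were higher at 24 h and lower at day 14. The reverse held for 17 (3.73% of those lower at 24 h, beside 4.99% over all matched regions). Of 199 members lower by at least 2-fold at 24 h, 165 (82.9%) were lower by at least 2-fold at day 14, which was 34.0% of the 486 such falls at day 14, beside 83.3% and 32.4% over all matched regions. Across members the log2 fold changes had a Pearson r of 0.702 and a Spearman rho of 0.698 (n = 1693 regions, a description, since regions share libraries). Over all matched regions r was 0.710.

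**Figure D4:**
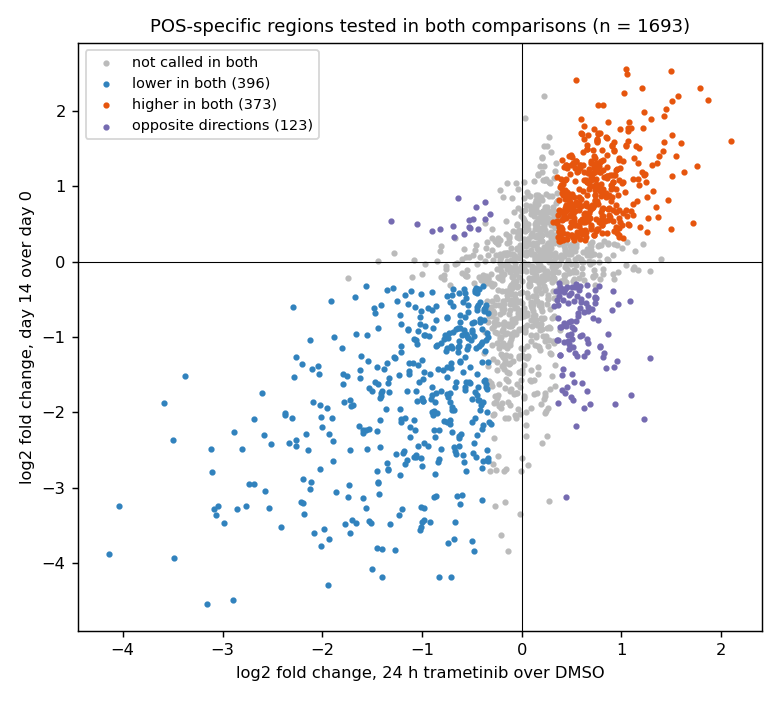
Log2 fold change of each POS-specific region at 24 h of trametinib (horizontal) and at day 14 (vertical), for the 1693 tested in both. Blue regions were lower in both (396), orange higher in both (373) and purple called in opposite directions (106 plus 17), and the deepest day 14 falls lie to the left of 0 with few exceptions.

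POSR1 and POSR2 were compared with the same POS DMSO libraries that chose the members, so again the counts are a description, and the POSR1 and POSR2 columns share those libraries. Of 2068 members tested, POSR1 had 523 higher and 609 lower by edgeR's test, against 26.5% and 29.4% of all 53524 regions. POSR2 had 506 higher and 604 lower, against 28.2% and 29.2%. Large changes were rare on the upper side, as among the other strong regions. Higher by at least 2-fold were 54 members in POSR1 (2.61%, against 9.34% of all and 3.61% of the other strong regions). In POSR2 they were 49 (2.37%, against 10.6% and 2.55%). Lower by at least 2-fold were 231 in POSR1 (11.2%, against 14.5% and 10.4%) and 219 in POSR2 (10.6%, against 14.2% and 11.5%). Falls of at least 8-fold numbered 22 in POSR1 (1.06%, against 0.383% and 0.348%) and 13 in POSR2 (0.629%, against 0.306% and 0.348%). Within 2-fold of POS were 1783 members (86.2%) in POSR1, beside 76.1% of all regions and 86.0% of the other strong regions. In POSR2 they were 1800 (87.0%), beside 75.2% and 85.9%. Median log2 fold changes were -0.02 in POSR1 and -0.01 in POSR2. The share at or above 20 CPM was 82.6% and 84.0% in the POSR1 libraries and 84.9% and 85.1% in the POSR2 libraries. Single libraries moved some counts: without the second POSR1 library 270 members were higher in POSR1, and without the first or the second POSR2 library 325 or 323 were higher in POSR2.

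**Figure D5:**
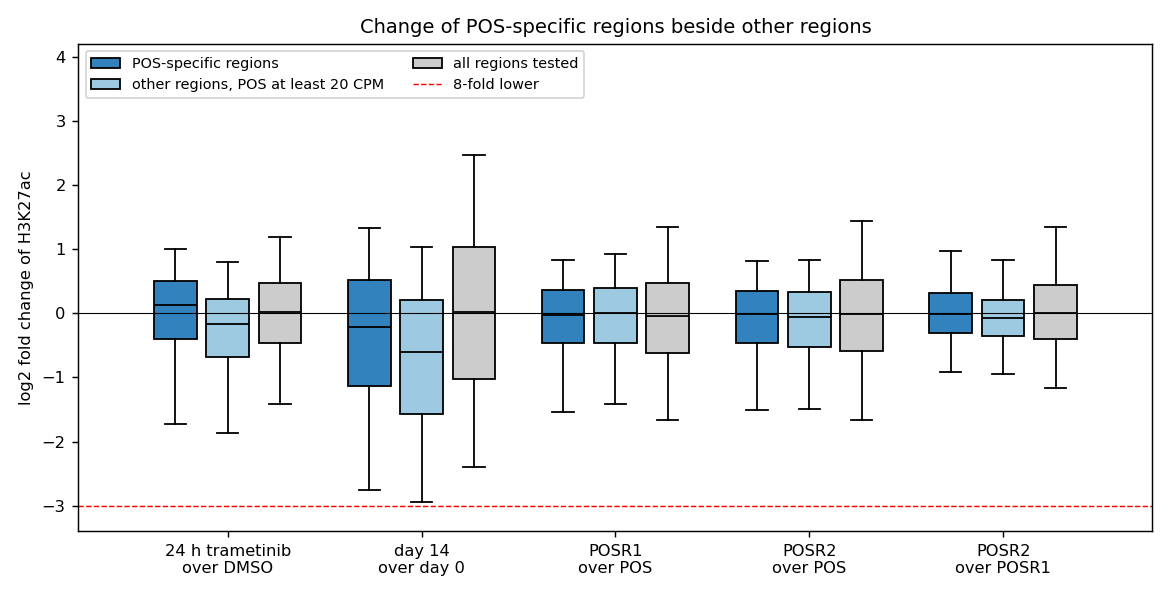
Log2 fold change of H3K27ac in 5 comparisons, for the POS-specific regions, the other strong regions (POS of at least 20 CPM) and all regions tested. Boxes span the quartiles with the median as a line, whiskers run from the 5th to the 95th percentile, and the dashed line marks an 8-fold fall, which the 5th percentile of POS-specific regions does not reach in any comparison (-2.75 at day 14, -1.54 in POSR1).

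A few members were lost from both POSR populations. At chr2:2665388-2666389 POSR1 had 0.702 and 0.358 CPM and POSR2 0.479 and 0.788 CPM, against a NEG level of 0.383 and 0.375 CPM. These POSR levels rest on 3 to 6 reads per library. The log2 fold changes from POS were -4.71 ± 0.27 and -4.52 ± 0.26. The same member was at 17.4, 18.8 and 22.4 CPM at 24 h and at 12.4 and 13.5 CPM at day 14, far above its POSR levels, and it held no JUNB site. At chr7:43424841-43425842, POSR1 had 1.83 and 2.27 CPM and POSR2 1.91 and 0.92 CPM, and this member had also fallen to 3.22, 6.32 and 4.57 CPM at 24 h and to 4.98 and 3.33 CPM at day 14.

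The largest rise in POSR was on chromosome 12. At chr12:25206971-25207972 POSR1 had 843 and 817 CPM and POSR2 575 and 651 CPM, with log2 fold changes from POS of 3.04 ± 0.25 and 2.61 ± 0.25. The POS libraries had 114, 92.6 and 94.0 CPM in the same table, all below the POSR libraries. A second member 1.32 Mb away, chr12:26526599-26527600, was also among the 4 largest rises, with 112 and 116 CPM in POSR1 and 91.1 and 86.6 CPM in POSR2. Because both lay close together, all regions from the one to the other were examined, a choice made after these values were seen. In POSR1 all 52 regions tested there were higher than in POS, with a median log2 fold change of 2.86, and in POSR2 45 were higher and 2 lower, with a median of 1.35. The rise of these members was thus shared with the non-members around them. The input libraries were not used, so whether the DNA content of this stretch also differed was not tested. At 24 h, 15 of the 42 regions tested in this stretch were higher and 15 lower, and at day 14 22 of 37 were higher and 13 lower.

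The comparison of POSR2 with POSR1 set no library that chose the members against another, though the POS libraries entered the fit and its estimate of the spread. Of the 2068 members, 388 (18.8%) were higher and 382 (18.5%) lower in POSR2 by edgeR's test, against 21.2% and 19.3% of all regions, so 1298 were not called. Scaled to total counts in place of TMM, 623 were higher and 506 lower. Left-out libraries moved these counts: 240 were higher without the first POSR1 library, and 214 or 221 were lower without the second POSR1 or the first POSR2 library. At chr17:26021401-26022402 the mark was almost gone from POSR1, at 2.25 and 1.43 CPM, and was 23.7 and 22.1 CPM in POSR2, against 68.7, 49.0 and 58.4 CPM in POS (POSR2 over POSR1, log2 fold change 3.48 ± 0.25, adjusted p = 1.1e-41 by edgeR). In the opposite direction, chr7:17246215-17247216 had 68.0 and 67.5 CPM in POSR1 and 11.6 and 9.59 CPM in POSR2 (log2 fold change -2.64 ± 0.19, adjusted p = 2.2e-42 by edgeR). A block of 4 members on chromosome 1 held 2 of the named regions. There, chr1:13926124-13927125 had 2.53 and 2.27 CPM in POSR1 and 27.9 and 23.8 CPM in POSR2, and chr1:13945781-13946782 had 2.53 and 0.955 CPM in POSR1 and 5.98 and 4.34 CPM in POSR2.

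Day 14 and the POSR comparisons share no library. Of the 812 members lower at day 14 and also tested in POSR, 314 (38.7%) were lower in POSR1, which was 61.6% of the 510 lower in POSR1, beside 41.1% and 60.9% over all 30996 matched regions. In POSR2 the corresponding number was 353 (43.5%), or 70.2% of 503, beside 48.1% and 72.0%. Of the same 812 members, 147 (18.1%) were higher in POSR1, beside 20.1% over all matched regions. In POSR2 111 (13.7%) were higher, beside 14.0%. These shares were thus near and below those of all matched regions. Across 1721 members the log2 fold changes at day 14 had a Pearson r of 0.263 with POSR1 and 0.456 with POSR2, and over all matched regions r was 0.281 and 0.527 (descriptions, since regions share libraries).

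In NEG cells most members had no region that could be followed. A region of the acute NEG table overlapped 175 members (8.27%), and one of the chronic NEG table overlapped 100 members (4.73%), beside 77.3% and 72.7% of the other strong regions. The rule asked for a low NEG level, which the other strong regions had failed, so this contrast largely follows from the rule. The NEG DMSO libraries that chose the members are also the 24 h control of the acute NEG table. Matched and tested were 127 and 73 members. A member enters these tables where a NEG library had a peak, and for 87 of the 127 the peak was listed from the treated libraries, so the counts are a description of this subset and stand for no other members. At 24 h 39 were higher and 7 lower (against 17.2% and 19.3% of all regions), 20 of them higher by at least 2-fold (against 4.38%). The excess of rises was in members listed from treated libraries, of which 35 were higher and 0 lower. Of the 40 listed from DMSO libraries, 4 were higher and 7 lower. DESeq2 called 17 higher and 3 lower, and any overlap in place of 50% gave 60 higher and 12 lower of 175. Without the second treated library 3 were lower, and without the first DMSO library 4. At day 14 40 were higher and 2 lower (against 24.8% and 23.8%), 30 of them higher by at least 2-fold (against 9.21%), and 1 was lower without the second day 14 library. Of the 29 listed from day 14 libraries 27 were higher, and of the 44 listed from day 0 libraries 13 were.

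The highest NEG changes were at regions listed from the day 14 NEG libraries, which entered the table through the group where they are high, so they are given with no p. At chr3:126762077-126763078 NEG had 2.84 and 5.00 CPM at day 0 and 47.4 and 46.6 CPM at day 14 (log2 fold change 3.39 ± 0.24). Its level in POS under DMSO was 55.0 CPM, in a table normalized separately. At chr18:61220305-61221306 NEG had 3.69 and 5.00 CPM at day 0 and 32.1 and 36.1 CPM at day 14. Over the 127 matched members at 24 h, the median was 8.49 and 9.06 CPM in the treated NEG libraries against 7.75 and 7.97 CPM under DMSO. Over the 73 matched members of the chronic arm, it was 17.4 and 16.3 CPM at day 14 against 9.93 and 11.2 CPM at day 0. The arms are not on the same scale: the median of all regions was 10.1 CPM in both 24 h libraries and 25.3 and 25.5 CPM at day 14.

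Only 59 members were present in both chronic tables, where POS and NEG could be compared in libraries outside the rule. At day 0 all 59 were higher in POS by edgeR's test, against 36.3% of all 15794 shared regions (36.5% were lower), with a median log2 fold change of 3.45. At day 14 57 were higher, against 39.0% (40.0% were lower), with a median of 3.04. None was lower at either time, also at an unadjusted p under 0.05 and by DESeq2. The 2 members not called at day 14 reached that point differently, and were singled out after their values were seen. At chr2:59907388-59908389 POS fell from 92.0 and 106 CPM to 24.3 and 23.8 CPM while NEG rose from 4.62 and 7.26 CPM to 23.4 and 32.2 CPM, and the log2 difference went from 3.88 ± 0.20 to -0.21 ± 0.22. At chr20:22360139-22361140 POS fell from 91.0 and 89.9 CPM to 13.4 and 16.7 CPM, and NEG stayed low, from 12.3 and 17.1 CPM to 9.91 and 10.3 CPM.

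The deposited tables of the authors, built with DESeq2, gave similar totals for the members. In the authors' deposited table for 24 h 714 members were higher and 534 lower at an adjusted p under 0.05, of which 665 and 516 were also called here. In the authors' deposited table for day 14 450 were higher and 687 lower, and all of these were also called here.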

How the data were processed

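Chromatin immunoprecipitation libraries of H3K27ac (22) and JUNB (4) were analysed, and 10 inputs were not used. Upstream processing used hg19, MACS2, DESeq2, featureCounts, STAR 2.5.2b and cutadapt 1.12, per the submitters' processing notes, with settings not given in the sources used. The authors deposited whole-number counts per region and library, with a region list per table, in windows of 1001 bases (H3K27ac) and 201 bases (JUNB). Count columns were mapped to samples by their names, except that the treated columns of the acute arm are coded GSK and were taken as acute trametinib from the name of their table. The authors also deposited DESeq2 tables with log2 fold changes and adjusted p-values, used only where named. The labels mention no molecular identifiers, and a count is of reads.

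Counts were tested with edgeR 4.0.16 in R 4.3.3 on each whole table (TMM factors, default filter with a minimum count of 10, prior count 2, quasi-likelihood test, Benjamini-Hochberg adjustment over all regions, threshold 0.05). SE is the absolute log2 fold change divided by the root of F. POSR1, POSR2 and POS entered 1 fit. The 4 chronic groups entered 1 fit over regions matched between both chronic tables, counted in each table's own windows. Levels are CPM with TMM factors, except those of the rule, which use column totals. Library totals were 4644625 to 8895187 counts in the POS and NEG table, 4503760 to 9212006 in acute POS, 3201383 to 5713610 in chronic POS, 4537976 to 8908747 in POSR, 4711000 to 5179400 in acute NEG, 1861227 to 3617120 in chronic NEG and 4884516 to 8947351 for JUNB. Regions were matched 1 to 1 at a reciprocal overlap of 50%. Same-group libraries differed by more than sampling noise. The fits were tested on simulated counts.

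The members, lists and tests were chosen with earlier results of these data known. Named regions are, by day 14 change, the 6 lowest, 6 highest and 6 smallest. By POSR change they are the 4 lowest and 4 highest, by POSR2 over POSR1 the 3 lowest and 3 highest, by 24 h change the 4 lowest and 4 highest, and by JUNB the 4 highest. All were past the threshold where a change was asked, and there was at most 1 a block in each list. The lists by H3K27ac change drew only on members matched and tested in the acute POS, chronic POS and POSR tables. The lowest and highest at day 14 and at 24 h also had groups that did not overlap. The regions by position are the 5 largest blocks. Of these, the regions with the most distinct course across tables were described, and the chromosome 12 stretch, the NEG rises and the members not called at day 14 were chosen after their values were seen. Alternatives were other scaling, DESeq2 1.42.0, no filter, any overlap, a replicate block, POSR as 1 group and leaving out each library. Tables used pandas 2.3.3 and numpy 2.4.6 in python 3.11.15, and plots matplotlib 3.10.9.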

Additional observations from a re-analysis of the deposited data

Results flagged for a closer look

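POSR1 and POSR2, both set against the same POS libraries, differed from each other by edgeR's quasi-likelihood test in 770 POS-specific regions, 388 higher (18.8%) and 382 lower (18.5%) in POSR2 of 2068 tested, against 21.2% and 19.3% of all regions. The members' shares are thus near and below those of all regions. Scaled to total counts, 623 were higher and 506 lower. Of the 388 and 382 called with TMM scaling, 99 were higher and 88 lower by at least 2-fold. These were 4.79% and 4.26% of the members tested, against 9.32% and 7.12% of all regions. The test is of the difference itself.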

How the results depend on the processing

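Counts of members called higher or lower stayed within 1.5 times of those reported under the other scalings, tests, filters and overlaps, apart from the following. With the replicate number as a block, POSR1 had 288 members higher and POSR2 304, and no other such count moved by over 1.5 times. The numbers are only shared labels: at 24 h the deviations of same-numbered libraries correlated at 0.13, 0.38 and -0.01, and not every library correlated best with its own number. With POSR1 and POSR2 as 1 group, 347 were higher and 390 lower. With total counts in place of TMM, 623 members were higher in POSR2 than in POSR1, and 1 member was lower in POS than in NEG at day 14. Among members matched in NEG, DESeq2 called 17 higher and 3 lower at 24 h and 0 lower at day 14, and any overlap gave 60 higher and 12 lower at 24 h. The cause of these shifts was not tested, except that any overlap brought 175 members in place of 127.

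With each library left out in turn, members higher and lower ranged from 520 to 856 and from 498 to 665 at 24 h, and from 455 to 636 and from 726 to 923 at day 14. The ranges were 270 to 747 and 458 to 800 for POSR1, 323 to 722 and 468 to 793 for POSR2, and 240 to 537 and 214 to 532 for POSR2 over POSR1. They were 1905 to 1949 and 0 to 1 for JUNB, 26 to 35 and 3 to 7 for NEG at 24 h, and 34 to 42 and 1 to 3 for NEG at day 14. For POS over NEG they were 59 and 0 at day 0, and 56 to 57 and 0 at day 14. All 618 values of the named regions under these settings kept their direction and their side of the threshold. The chronic NEG libraries were the shallowest, with 1861227 to 3617120 counts, so a NEG level of a few CPM rests on few reads.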
